A study of Homo sapiens with 4 samples.

Results

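The CREC family is a small group of calcium-binding proteins of the secretory pathway, and its 5 genes here are the reticulocalbins RCN1, RCN2 and RCN3, calumenin (CALU) and Cab45 (SDF4). They were taken by name from the 60721 genes of the count table. The family was selected on the low RCN2 counts in siTLN1 against SCR in these same libraries, so the values of RCN2 are given as a description with no test. Its 4 relatives entered by membership, and the question put to them was whether any of them rose as RCN2 fell.

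RNA was sequenced from Hs578T, an established line from a human breast carcinoma. Every culture received GFP together with 1.6 µM of either a non-targeting siRNA (SCR) or an siRNA against TLN1 (siTLN1), and RNA was collected at 48 h. TLN1 encodes talin-1, which couples integrins to actin. Each group held 2 libraries, described as biological replicates and called a and b here, and the siRNA sequence is not given in the sources used here.

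CREC proteins carry several EF-hands, helix-loop-helix units that bind calcium, here with low affinity. Reticulocalbins are held in the lumen of the endoplasmic reticulum (ER) by a signal at their C-terminal end that KDEL receptors recognise. Calumenin is found in the ER and is also secreted, and Cab45 is a soluble protein of the Golgi lumen that helps sort secreted cargo.

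The libraries held between 31854322 and 46353297 counts. TLN1 had 27592 and 30425 counts in SCR and 1888 and 2104 in siTLN1, so the libraries matched their labels. Of 16137 genes that passed a filter on low counts, 980 (6.07%) passed an adjusted p of 0.05 (edgeR, quasi-likelihood, Benjamini-Hochberg), with 371 (2.3%) higher and 609 (3.77%) lower in siTLN1. Without siTLN1 library a the number of changed genes was 347. The labels call the cells epithelial. The epithelial markers EPCAM, CDH1 and KRT19 were at or below 0.589 TPM (a level corrected for gene length and scaled to the same total in each library) in all 4 libraries, KRT18 was between 149.6 and 180.0 TPM, and the mesenchymal marker VIM was between 3114 and 3254 TPM. Summed over 6 epithelial markers, the level was 162 and 194 TPM in SCR and 167 and 183 TPM in siTLN1, so these ranges overlapped. Summed over 4 mesenchymal markers it was 10608 and 9521 TPM in SCR and 11259 and 10165 TPM in siTLN1, which also overlapped. Of these 4, CDH2 (N-cadherin) did not overlap, with 543 and 488 TPM in SCR and 272 and 266 TPM in siTLN1. ZEB1 did not overlap either, at 62.2 and 54.99 TPM against 53.7 and 53.03 TPM. Of the epithelial markers, KRT8 was lower in siTLN1 without overlap, at 11.03 and 12.7 TPM against 9.15 and 10.4 TPM. CDH1 and KRT19, at or below 0.589 TPM, were higher without overlap. In counts scaled to library size, 24.6% of all genes tested lay wholly lower in siTLN1 and 23.9% wholly higher. The part of these markers in the results was not tested.

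RCN2 alone of the 5 genes held a short sequence word in its transcripts. The 7-base word GACAACA was searched on the transcript strand, because transcripts that hold it in the 3′ UTR tended to lie lower in siTLN1 in these libraries: the median log2 fold change was −0.098 for 951 such genes and 0.013 for 11934 genes without it, and 16.6% against 3.39% were called lower (RCN2 and TLN1 left out). In GENCODE 29, 3 of 6 RCN2 transcripts held the word once, at the same place, starting at base 225 of the 3′ UTR. It was found in none of 7 RCN1, 5 RCN3, 6 CALU and 7 SDF4 transcripts. Among 12887 tested genes with a coding transcript, 7.39% held the word in the 3′ UTR of the transcript with the longest coding sequence. The site is shown because it is the only copy in the family's annotated transcripts. It lies on the plus strand of GRCh38 at chr15:76949436-76949464, and the capitals mark the word.

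RCN2 3′ UTR site: ttgtgccatatGACAACAaagtctttcct

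The word and RCN2 were both taken up on fold changes of this same contrast. Genes with and without the word were not matched for transcript length or level. The match is therefore only a description of the sequence, and the part of the word in the RCN2 fall was not tested.

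All 5 genes passed the filter on low counts, and levels are given in TPM. CALU was by far the most abundant, with 1564 and 1356 TPM in the SCR libraries, and it ranked 61st of all tested genes. SDF4 followed with 234 and 259 TPM, then RCN1 with 143 and 144 TPM and RCN3 with 92.2 and 110 TPM. RCN2 was the lowest, with 35.5 and 33.7 TPM. The SCR libraries of neighbouring genes in this order did not overlap, and the same order was found in both siTLN1 libraries, where CALU stood at 1008 and 1018 TPM and RCN2 at 8.93 and 9.07 TPM. The place of RCN2 depends on the length used. Its annotated exons cover 9901 bases, whereas the RCN2 transcript with the longest coding sequence has 1750. With CPM (counts scaled to library size, not to gene length) divided by that transcript's length in kilobases, a choice made after seeing the data, RCN2 had 45.5 and 45.2 in SCR and stood above RCN3 (19.1 and 23.8). In siTLN1, RCN2 had 12.2 and 12.2 on this scale and was again the lowest, below RCN3 (13.9 and 16.5).

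**Figure D1:**
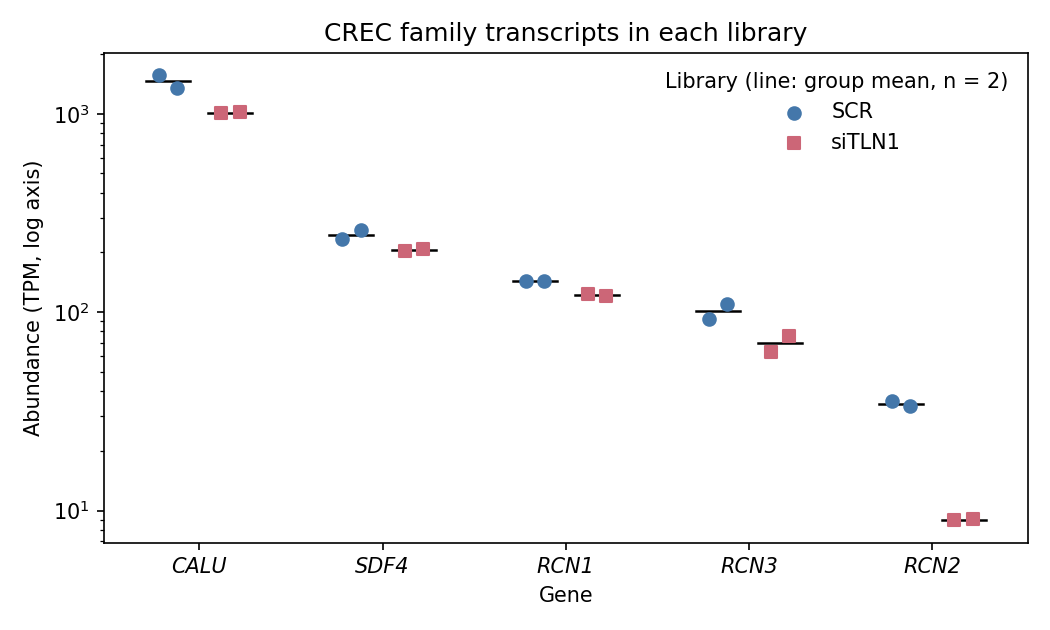
Abundance of each CREC gene in TPM (log axis) in the 2 SCR libraries (circles) and the 2 siTLN1 libraries (squares), with lines at the group means. CALU lies near 1460 TPM in SCR and RCN2 near 34.6 TPM, and in every gene both siTLN1 libraries lie below both SCR libraries.

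RCN2 (ENSG00000117906.14; GRCh38, chromosome 15, 76931738 to 76954393, plus strand, 7 exon blocks) encodes an ER reticulocalbin. It had 2530 and 2752 raw counts in SCR against 774 and 1000 in siTLN1, which is 79.6 and 79.0 CPM against 21.3 and 21.3 CPM. The siTLN1 mean was 26.8% of the SCR mean, and the log2 fold change of −1.90 was the 15th largest fall among the 16137 genes. Both libraries of a group were nearly equal, and none of the exon bases of RCN2 lies in an exon of another gene of the table. In bulk RNA, fewer cells that express a gene and less of its RNA per cell cannot be told apart.

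RCN3 (ENSG00000142552.8; chromosome 19, 49528003 to 49546962, plus strand) encodes the third reticulocalbin of the ER lumen, which has been studied in collagen production. Its level was 35.5 and 44.2 CPM in SCR and 25.9 and 30.7 CPM in siTLN1. The groups did not overlap, and library b was the higher one in each. RCN3 fell by 0.49 on the log2 scale (standard error 0.12, 95% interval −0.76 to −0.23), with an adjusted p of 0.0278 (edgeR, quasi-likelihood, Benjamini-Hochberg). This call was lost without SCR library b (log2 fold change −0.33, adjusted p 0.130), without siTLN1 library a (−0.38, adjusted p 0.273) and when genes with low counts were kept in the fit (−0.48, adjusted p 0.0612). Over its alternatives the adjusted p ranged from 4.09e-08 to 0.273.

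RCN1 (ENSG00000049449.9; chromosome 11, 32090904 to 32105755, plus strand) encodes the founding reticulocalbin of the ER. It had 151 and 159 CPM in SCR and 138 and 133 CPM in siTLN1. Both siTLN1 libraries were lower than both SCR libraries, but the log2 fold change of −0.19 (standard error 0.091, 95% interval −0.38 to 0.0016) did not pass the test, with an adjusted p of 0.257. An unnamed gene on the same strand, ENSG00000285283, covers 20% of the exon bases of RCN1. That gene and ENSG00000255252, which shares 3.21% on the opposite strand, had 0 counts in all 4 libraries, and reads in the shared bases may have gone uncounted. The pseudogene RCN1P2 had between 3 and 11 counts per library and RCN1P1 had 0.

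CALU (ENSG00000128595.17; chromosome 7, 128739292 to 128773400, plus strand) encodes calumenin, known as an inhibitor of vitamin K-dependent gamma-carboxylation. It had 2244 and 2034 CPM in SCR and 1537 and 1529.8 CPM in siTLN1. The siTLN1 libraries were almost equal and both lay below the SCR libraries, which differed more from each other. CALU fell by 0.48 on the log2 scale (standard error 0.11, 95% interval −0.70 to −0.26), with an adjusted p of 0.0114 in the same edgeR test. The call was lost without SCR library a (log2 fold change −0.41, adjusted p 0.126) and without siTLN1 library a (−0.48, adjusted p 0.0711), within a range of 1.81e-06 to 0.126 over its alternatives. OPN1SW on the opposite strand shares 2.66% of the exon bases of CALU and had between 3 and 9 counts per library.

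SDF4 (ENSG00000078808.17; chromosome 1, 1216908 to 1232067, minus strand) encodes Cab45. It had 251 and 290.3 CPM in SCR and 232 and 233 CPM in siTLN1, and the groups did not overlap. The log2 fold change was −0.22 (standard error 0.098, 95% interval −0.43 to −0.013), with an adjusted p of 0.219, so SDF4 did not pass the test. Without SCR library b its log2 fold change was −0.11.

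**Figure D2:**
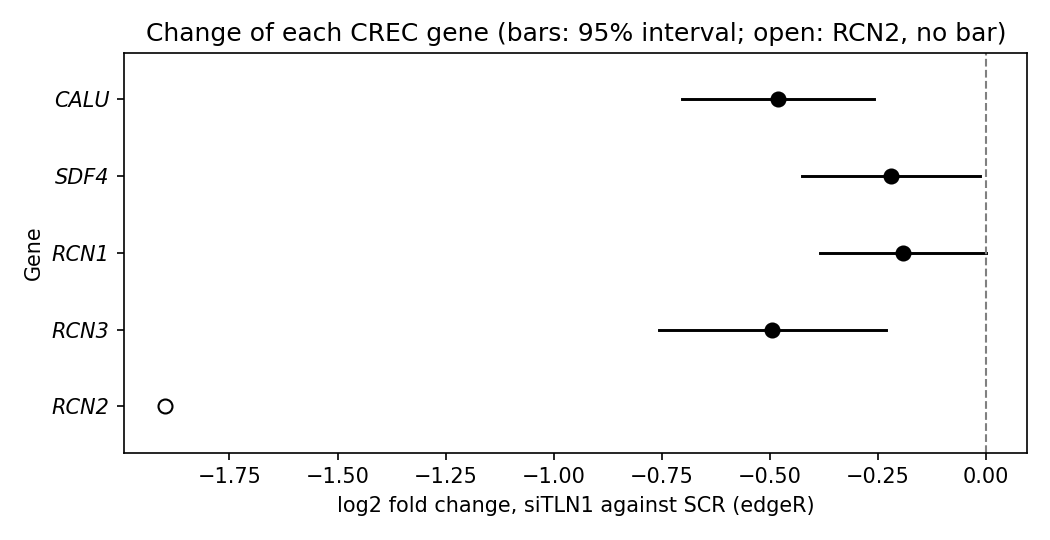
Log2 fold change of each CREC gene, siTLN1 against SCR, from edgeR. Bars are 95% intervals for the 4 relatives, and RCN2 (open circle, −1.90) has none because its fall chose the family. All 5 values lie below 0, and of the 4 intervals that of RCN1 alone reaches past it, to 0.0016.

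No relative rose. Of the 4 relatives, 2 (RCN3 and CALU) were called lower and 0 were called higher, against 3.77% and 2.3% of all genes tested, and 0 were higher at an unadjusted p under 0.05. On the CPM scale, the siTLN1 libraries lay below the SCR libraries in 4 of 4, as they did in 24.6% of all genes tested, while 23.9% of all genes lay wholly above. A log2 fold change below 0 was found for 4 of 4 relatives and for 49.4% of all genes. The median log2 fold change of the 4 was −0.35, beside 0.0033 for all tested genes. The upper ends of the 95% intervals, not adjusted for the number of genes, put the siTLN1 level at no more than 100.1% of SCR for RCN1, 99.1% for SDF4, 85.2% for RCN3 and 83.6% for CALU.

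Added up, the 4 relatives gave 2032 and 1868 TPM in SCR and 1397 and 1422 TPM in siTLN1. The RCN2 means differed by −25.6 TPM (from 34.6 ± 1.26 to 9.0 ± 0.0998, SD, n = 2), and over the same contrast the sums of the relatives differed by −541 TPM (from 1950 ± 116 to 1409.6 ± 17.2, SD, n = 2). CALU made up −447 TPM of that difference. The other 3 relatives together went from 490.2 ± 30.7 to 396 ± 9.91 TPM (SD, n = 2). The sum over the 5 genes differed by −28.5%, and in both sums the siTLN1 libraries lay below the SCR libraries. By gene, CALU supplied 73.5% of the summed TPM in SCR and 71.4% in siTLN1, RCN1 7.23% and 8.57%, SDF4 12.4% and 14.5%, RCN3 5.11% and 4.90%, and RCN2 1.7% and 0.635%. These sums count transcripts of different proteins and say nothing of protein levels. The share and the difference of RCN2 also depend on the length used, since TPM divides its counts by 9901 exon bases. In CPM the means differed by −58.0 for RCN2 and by −675 for the sum of the 4 relatives. With CPM per kilobase of 1 transcript, the RCN2 mean was 45.3 in SCR and 12.2 in siTLN1, and that of CALU 506 and 363.

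**Figure D3:**
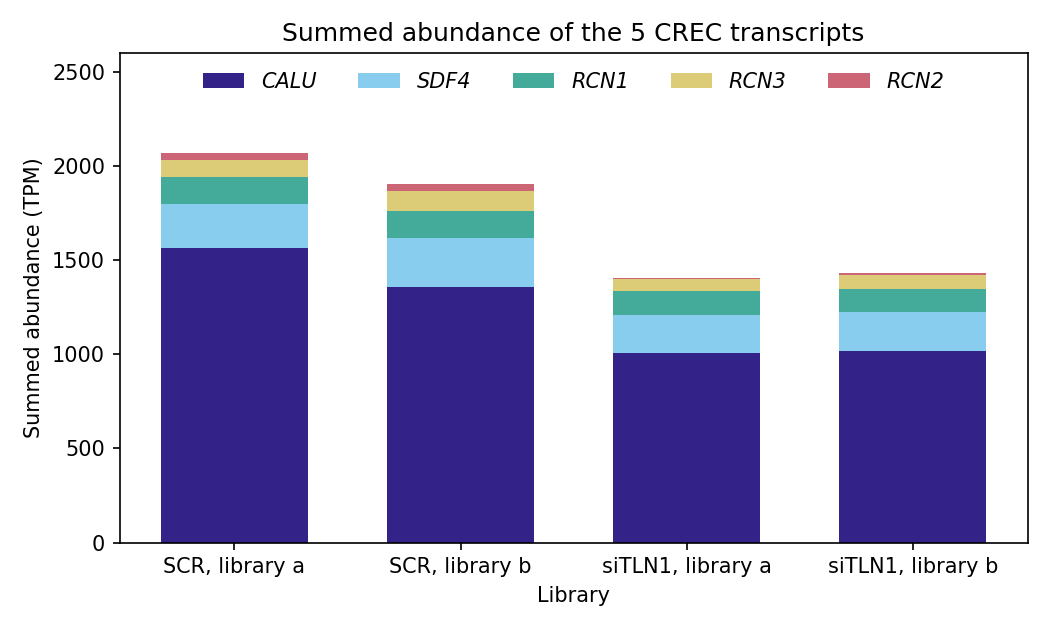
Summed abundance (TPM) of the 5 CREC transcripts in each library, stacked by gene. The SCR bars reach 2068 and 1902 TPM and the siTLN1 bars 1406 and 1431 TPM, and CALU forms most of every bar.

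KDEL receptors return reticulocalbins that escape to the Golgi, and cargo receptors carry other proteins between the same compartments. Of 8 retrieval and cargo-receptor genes tested, 3 were called lower and 0 higher, beside 3.77% and 2.3% of all genes tested, and the list median was −0.28 beside 0.0033 for all tested genes. On the CPM scale, the siTLN1 libraries lay below the SCR libraries in 7 of 8, against a background of 24.6%. KDELR3, a KDEL receptor, had 273 and 282 TPM in SCR and 165 and 203 TPM in siTLN1, and it fell by 0.55 on the log2 scale (adjusted p 0.00512 in edgeR's test). LMAN2, a lectin that carries glycoproteins, had 304 and 353 TPM against 206 and 234 TPM and fell by 0.54 (adjusted p 0.00665). TMED2, a cargo receptor of transport vesicles, had 354 and 326 TPM against 219.7 and 251 TPM and fell by 0.49 (adjusted p 0.00559). All 3 calls were lost without siTLN1 library a, with log2 fold changes of −0.41 for KDELR3, −0.46 for LMAN2 and −0.40 for TMED2. The other KDEL receptors did not pass: KDELR2 had a log2 fold change of −0.28 (adjusted p 0.0912) and KDELR1 one of −0.057 (adjusted p 0.81).

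ER chaperones that bind calcium showed no call. Of 9 genes, 9 missed the threshold, which 6.07% of all genes tested passed. The smallest adjusted p was 0.0684 in edgeR's test, and the list median was −0.055. A log2 fold change below 0 was found for 7 of 9, beside 49.4% of all genes tested. On the CPM scale, the siTLN1 libraries lay wholly below the SCR libraries in 2 (24.6% of all genes) and wholly above in 0 (23.9%). CALR (calreticulin, the main calcium buffer of the ER) had 3076 and 3532 TPM in SCR and 2470.3 and 3028 TPM in siTLN1, with a log2 fold change of −0.22 (adjusted p 0.339). HSP90B1, the ER member of the HSP90 chaperones, had 1611 and 1694 TPM against 1514 and 1636 TPM, with a log2 fold change of −0.025 (adjusted p 0.932). Without SCR library a the median of this list was −0.26, and without SCR library b it was 0.044.

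Of other EF-hand proteins of the secretory pathway, 13 of a list of 17 were tested. Among them 2 were called higher and 1 lower, beside 2.3% and 3.77% of all genes tested, with a median of −0.039. STIM2, an ER calcium sensor, had 25.2 and 22.6 TPM in SCR and 35.1 and 33.7 TPM in siTLN1, a rise of 0.57 on the log2 scale with an adjusted p of 0.00165. SPOCK3, a matrix proteoglycan, was scarce, with 0.713 and 1.0 TPM against 2.01 and 2.42 TPM, and rose by 1.41 (adjusted p 0.00338). SPARC, a secreted collagen-binding glycoprotein, had 4874 and 4479.7 TPM against 3319.6 and 3183 TPM and fell by 0.48 (adjusted p 0.0161). The STIM2 and SPOCK3 calls held in 4 of 4 fits with a library left out, and the SPARC call in 0 of 4, with log2 fold changes between −0.52 and −0.43.

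Calcium pumps, channels and their regulators held 1 call in each direction among 14 tested of 16, beside 2.3% higher and 3.77% lower over all genes tested, and their median was 0.040. ATP2A3, an ER calcium pump, had 5.99 and 5.81 TPM in SCR and 7.84 and 7.78 TPM in siTLN1 and rose by 0.45 on the log2 scale (adjusted p 0.0359). SARAF, which restrains store-operated calcium entry, had 316 and 311 TPM against 231 and 252 TPM and fell by 0.33 (adjusted p 0.0409). Both calls were lost in 4 of 4 fits with a library left out. Of all genes tested, 6.07% passed the threshold in either direction. Of 6 tested genes whose proteins have been reported to bind a CREC protein or to act with one, 6 missed it. Their median was 0.027. They include the matrix protein gene THBS1 (1438 and 1155 TPM in SCR, 1030.3 and 791 TPM in siTLN1, log2 fold change −0.46, adjusted p 0.0708) and the ER calcium pump gene ATP2A2 (153 and 140.1 TPM against 176 and 163 TPM, log2 fold change 0.26, adjusted p 0.142).

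**Figure D4:**
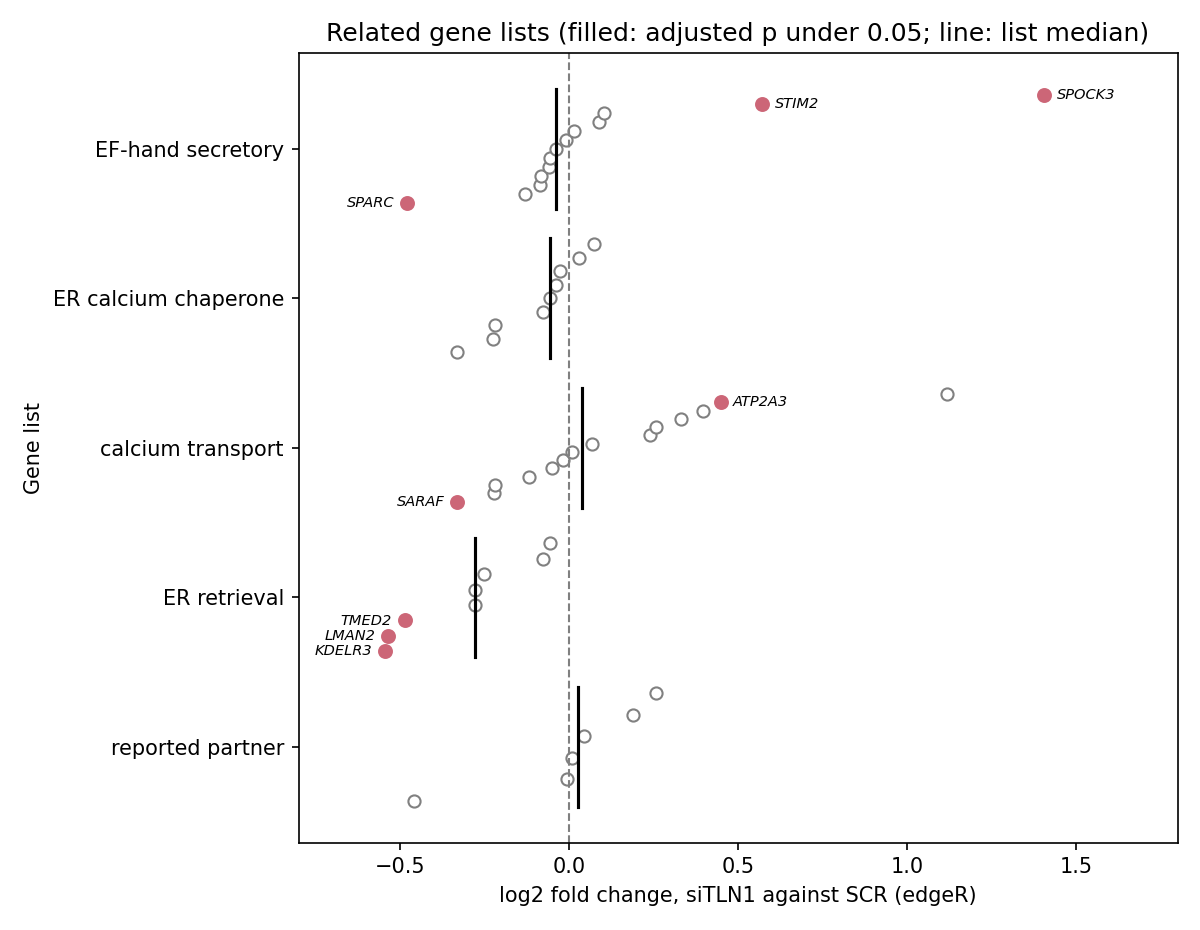
Log2 fold change (siTLN1 against SCR, edgeR) of each tested gene in 5 related lists. Filled points have an adjusted p under 0.05 and are named, and black lines are list medians. The ER retrieval list has its median at −0.28, and the other 4 medians lie between −0.055 and 0.040. Below 0 lie 8 of 8 genes of the ER retrieval list, which holds retrieval and cargo-receptor genes. Of the ER calcium chaperone genes, 7 of 9 lie below 0. Both stand beside 49.4% of all genes tested.

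The genes whose pattern over the 4 libraries was most like that of RCN2 were found by the Euclidean distance between log2 CPM values centred on each gene's mean, among 10475 genes with a symbol and a mean of at least 5 CPM. The nearest was BCL7B (distance 0.25), which had 88.5 and 86.0 CPM in SCR and 19.6 and 19.6 CPM in siTLN1. KCNK2 (0.27), MYBL2 (0.31), MYPN (0.36) and DHRS7B (0.40) followed. DHRS7B had 13.3 and 14.8 CPM in SCR against 4.62 and 5.09 CPM in siTLN1. With 2 groups of 2 libraries, this measure mostly picks genes with a fall of similar size. Within the family the distances to RCN2 were larger, from 1.42 for CALU and 1.43 for RCN3 to 1.69 for SDF4 and 1.71 for RCN1. In the transcripts with the longest coding sequence, KCNK2 and DHRS7B held 1 copy each of GACAACA in the 3′ UTR, MYBL2 held 2 and MYPN 1 in coding sequence, and BCL7B held 0. Among all 12887 tested genes with a coding transcript, 21.9% held the word in coding sequence or the 3′ UTR. These genes were picked for a fall like that of RCN2, and the word for being more common in genes that fell. The copies are therefore a description, and their part in the falls was not tested.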

How the data were processed

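Per the file headers, the authors counted paired reads per gene with featureCounts 2.0.0 against GENCODE 33 and set no strand option, and the deposited counts are raw. The build is GRCh38, per the submitters' processing notes. STAR 2.7.9a and edgeR 3.34.1 are named in the submitters' processing notes. Gene lengths in exon bases are a further deposited column, a measure other than counts. A log2 CPM table of 16137 genes was deposited too, and when each group's values were sorted, 100% matched log2 CPM recomputed with edgeR from the counts to 6 decimals.

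Count columns name their group and an RNA number that recurs once in each group. This number matches no replicate label and its meaning is not given in the sources used here, so only the group is used, and 0 columns were left unmapped. TPM was computed from counts and exon length. The comparison used edgeR 4.0.16 in R 4.3.3, with filterByExpr (minimum count 10, minimum total 15), TMM scaling, glmQLFit (robust) and glmQLFTest, with Benjamini-Hochberg adjustment over 16137 genes and a threshold of 0.05. CPM is TMM-scaled. With 2 libraries per group an exact permutation test of 1 value cannot go below 0.333, so tests come from the model over all genes. P values set the group difference of a gene against the spread between these libraries, which the model estimates with information from all genes.

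Other settings were DESeq2 1.42.0, the legacy quasi-likelihood fit, RLE or no scaling beyond total counts, no filter or one at a mean of 10 counts, limma-trend (limma 3.58.1) on the deposited log2 CPM with and without the replicate number, removal of each library's gene-length trend (span 0.3), and each library left out. Fits for list genes and levels per length of 1 transcript were added after seeing the data. The members and lists were chosen with earlier results of these data known. Named genes are the members, TLN1, list genes past the threshold (or the 2 most abundant of a list with none), the 5 nearest to RCN2, pseudogenes and genes that share exon bases with a member. KDELR1 and KDELR2 were added after their values were seen. Transcripts came from GENCODE 29, and symbols from a table of gene names that matched 16085 tested genes. On simulated counts for 16137 genes with 200 changed 2-fold, edgeR recovered 158 (125 of the 125 at 5 CPM or more) with 11 false calls. Changes smaller than 2-fold, such as those of the 4 relatives, were not simulated.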

Additional observations from a re-analysis of the deposited data

How the results depend on the processing

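RCN1 and SDF4 stayed below 0 and past no threshold, and CALU stayed called, in all 8 alternatives that used all 4 libraries without the replicate number. RCN3 held its call in 7 of 8 and lost it with no filter on low counts (−0.48). The log2 fold change of RCN2 was −1.89 with no filter and −1.91 with the gene-length trend removed. With 1 library left out, where the lone library of a group is assumed to vary like the others, the ranges were −0.55 to −0.41 for CALU, −0.64 to −0.33 for RCN3 and −1.90 to −1.89 for RCN2, with 347 to 1116 changed genes. The log2 ratio of the 4 relatives' sum was −0.47, and −0.53 to −0.41 with a library left out. It was −0.40 with CPM per kilobase of 1 transcript. Among list genes, SARAF and ATP2A3 lost their calls with no filter, ATP2A3 with DESeq2 and SPARC with limma-trend (adjusted p 0.094, 0.055, 0.0696 and 0.0571), all in the same direction. The genes called lower numbered 389 with no filter, against 609. The cause of these shifts was not tested.

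The replicate numbers of the labels are in both groups, and the names of the count columns carry an RNA number that recurs in both groups as well. Whether either marks a shared preparation is not stated, so pairing cannot be settled here. Differences between replicates 1 and 2 correlated across genes at 0.19 (0.53 at 5 CPM or more). The limma-trend fit with a replicate block had 3650 changed genes and called RCN1 (−0.19, adjusted p 0.0157) and SDF4 (−0.22, adjusted p 0.00651) lower as well. Over all alternatives the adjusted p ran from 0.0157 to 0.615 for RCN1 and from 0.00651 to 0.771 for SDF4.

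Each of the 5 genes had at least 774 counts in every library. Each group held 2 libraries. Counting without strand, and levels relative to total RNA, bear on all values.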
